A study of Rattus norvegicus with 6 samples.

Results

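On rat chromosome 13, contacts of a gene promoter were followed across the stretch that lies 3.57 to 10.0 Mb from the viewpoint on the side of lower coordinates, from 45572118 to 52000606 in the rn5 build. Members were chosen by position alone: every restriction fragment of chromosome 13 whose start lies from 45570181 to 52000000. The stretch held 1829 EcoRI fragments over 6.43 Mb, out of 794445 fragments in the tables of the whole series. The assay was 4C-seq, in which fixed chromatin is digested and its ends ligated, so that fragments that lay close to the chosen viewpoint in the nucleus are joined to it and can be amplified and sequenced. The cells were rat cardiac endothelial cells, which line the vessels and chambers of the heart, grown to passage 2, pooled from males and females and fixed with 2% formaldehyde for 10 min at room temperature. The labels name no treatment, and the groups differed by strain. SS (SS/JrHsdMcwi) is the Dahl salt-sensitive rat, an inbred model of salt-induced hypertension. SS13BN (SS-13BN/Mcwi) is a consomic strain in which chromosome 13 comes from the Brown Norway rat and the other chromosomes from SS, so the viewpoint and the whole stretch described here are of Brown Norway origin in that group. Of the 3 libraries per strain, replicates 1 and 2 carried scores on chromosome 13. Replicate 3 of both strains listed that chromosome at 0 and was left out, so each comparison rests on 2 libraries per strain. Whether the libraries of a strain are separate animals or cultures is not said in the labels, so the p-values speak only of the spread among these libraries, and that spread may be technical. Age, endothelial markers and the genes, exons and introns of rn5 were not used here.

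The contacts of a promoter become rarer with distance along the chromosome. At a range of several megabases, contacts no longer reflect a single enhancer and its promoter, as a rule. They reflect the folding of the chromosome into active and inactive compartments, in which stretches of like chromatin tend to lie together, so that contact rises and falls in blocks. Each fragment here is either captured (joined to the viewpoint) or not captured in a library. The deposited score of a fragment compares the number captured among the 37 fragments centred on it with the share captured in a background of 3000 fragments around it, in units of the binomial SD. The captured state of each of the 1829 fragments was solved from these scores in all 4 libraries. How many reads a captured fragment had is not given by them.

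Contact with the stretch was above the level of other chromosomes in each library. In SS 1, 397 of 1829 fragments were captured, which is 21.7% (95% Wilson interval 19.9% to 23.7%). In SS 2 it was 409, or 22.4% (20.5% to 24.3%), and in SS13BN 1 it was 398, or 21.8% (19.9% to 23.7%). SS13BN 2 stood apart with 616, or 33.7% (31.6% to 35.9%), and the other 3 libraries overlapped within their intervals. Wilson intervals cover counting error only and take fragments as independent. Captured fragments sat next to each other, as given below, so these intervals are too narrow. On the 20 other chromosomes the same libraries captured 12.3%, 9.99%, 9.92% and 17.4% of fragments, so SS13BN 2 was the highest there too. The stretch stood at 1.76, 2.24, 2.19 and 1.93 times that level in SS 1, SS 2, SS13BN 1 and SS13BN 2, a mean of 2.03 ± 0.226 (SD, n = 4).

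The stretch was captured more often than the stretch at the same distance on the other side of the viewpoint. From 59140362 to 65570181, 15.8% of 2012 fragments were captured in SS 1, with an interval of 14.2% to 17.4%. The share was 16.9% (15.3% to 18.6%) in SS 2, and 17.2% (15.7% to 19%) in SS13BN 1 and 27.3% (25.4% to 29.3%) in SS13BN 2. In each library the interval lay below that of the lower side, though both intervals take neighbouring fragments as independent. The ratio of the lower to the upper side was 1.38, 1.32, 1.26 and 1.23, a mean of 1.30 ± 0.0642 (SD, n = 4). The mean log2 ratio of 0.38 had an exact two-sided paired permutation p of 0.125, which is the smallest that 4 libraries allow. The sides also differed in how their fragments lie: the lower side held 285 fragments per Mb with a median length of 2243 bp, and the upper side 313 per Mb with a median of 2040.5 bp. Counted per Mb instead of per fragment, the log2 ratio was 0.24, with the same exact permutation p. With fragments of 500 bp or longer it was 0.35, and from 5 to 10 Mb on both sides it was 0.58. Each of these kept the lower side higher in 4 of 4 libraries.

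**Figure D1:**
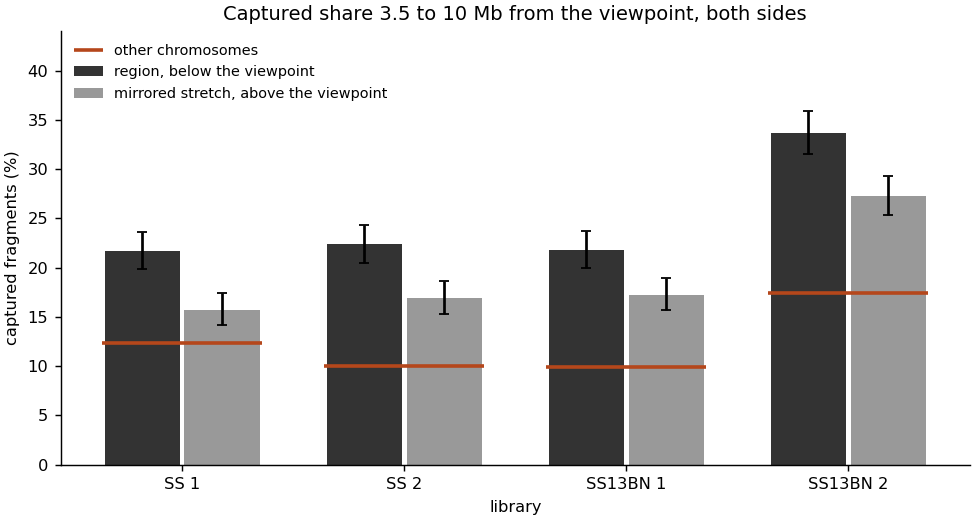
Bars give the captured share in percent per library for the stretch 3.5 to 10 Mb below the viewpoint (dark) and for the mirrored stretch above it (grey), with 95% Wilson intervals of counting error, and the line gives the share on other chromosomes. In all 4 libraries the dark bar is the higher, from 21.7% against 15.8% in SS 1 to 33.7% against 27.3% in SS13BN 2.

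Within the stretch, the captured shares of the nearer and the farther fragments differed in no direction common to all libraries. The 865 fragments nearer the viewpoint, from the midpoint at 48785090 on, were captured at 21.7%, 21.8%, 20.9% and 34.8% in SS 1, SS 2, SS13BN 1 and SS13BN 2. The 964 fragments on the farther side of the midpoint were captured at 21.7%, 22.8%, 22.5% and 32.7%. The ratio of nearer to farther was 1.0, 0.957, 0.930 and 1.06, above 1 in some libraries and below it in others. The mean log2 ratio was -0.018, with an exact two-sided paired permutation p of 0.75. Per Mb, where the farther side had more fragments (300 against 269), the mean log2 ratio was -0.17 and the farther side was higher in 4 of 4 libraries, with an exact permutation p of 0.125. Over the 13 windows of 500 kb, Spearman's rho between distance and captured share was -0.077 in SS 1 and -0.26 in SS 2, and -0.12 in SS13BN 1 and -0.18 in SS13BN 2. All 4 are below 0, and the 2 farthest windows, given below, were lower than the 3 nearest. These rhos describe windows that share a library, and windows are not replicates.

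Along the stretch, contact rose and fell in blocks, several of which the libraries shared. The highest window of 500 kb lay from 49.5 to 50 Mb, 5.82 Mb from the viewpoint. Its captured share was 34.4% in SS 1 and 35.9% in SS 2, and 33.6% in SS13BN 1 and 51.6% in SS13BN 2, with 128 fragments in the window. Relative to each library's share over the whole stretch, this is 1.57 ± 0.0352 (SD, n = 4), the narrowest spread of the 13 windows. The next was 48.0 to 48.5 Mb, at 30.3%, 36.8%, 34.8% and 43.2%, or 1.48 ± 0.17 (SD, n = 4) times the library's share. The window from 50 to 50.5 Mb followed at 1.30 ± 0.214 (SD, n = 4). There SS13BN 1, at 35.3%, stood higher relative to its own share than the other 3 libraries, which captured 26.1% in SS 1, 26.1% in SS 2 and 41.2% in SS13BN 2.

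Between these high blocks lay the lowest window, 48.5 to 49.0 Mb, with 11.7% in SS 1 and 17.2% in SS 2, and 10.2% in SS13BN 1 and 17.2% in SS13BN 2. That is 0.571 ± 0.135 (SD, n = 4) times the library's share, and each library was below 0.8 times. The far end was low as well. From 46.0 to 46.5 Mb the shares were 10.1%, 16.7%, 11.9% and 21.4%, or 0.599 ± 0.12 (SD, n = 4) times, and from 45.5 Mb (cut at the edge of the stretch) to 46.0 Mb they averaged 0.678 ± 0.118 (SD, n = 4) times. The 3 windows nearest the viewpoint, from 50.5 to 52.0 Mb, were close to each other at 0.848, 0.854 and 0.838 times. The windows from 47.0, 47.5 and 49.0 Mb stood at 1.2, 1.11 and 1.01 times. The window from 46.5 to 47.0 Mb was the least settled, with 32.5% in SS 1 against 15.0% in SS 2, and 22.5% and 35.8% in the SS13BN libraries.

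**Figure D2:**
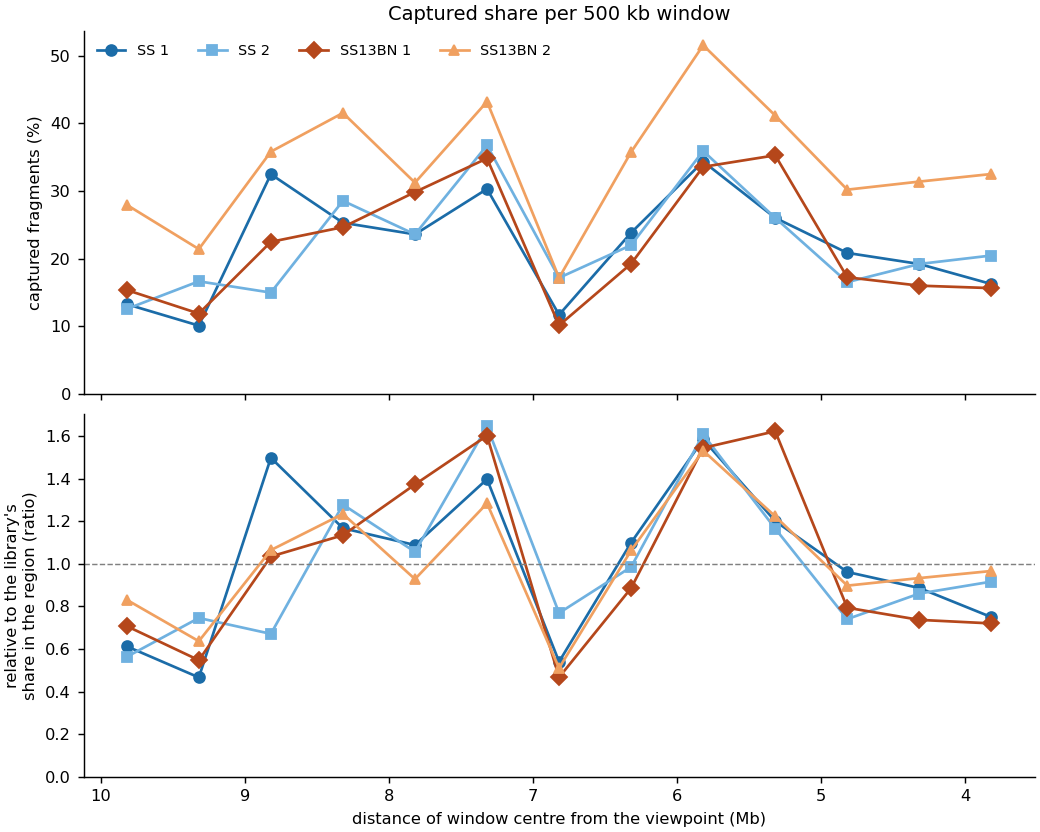
The upper panel gives the captured share in percent per 500 kb window against the distance of the window's centre from the viewpoint in Mb, 1 line per library, and the lower panel gives the same as a ratio to the library's share over the whole stretch. All 4 lines are high 5.82 and 7.32 Mb out, at 1.28 times the library's share or more, and low 6.82 Mb out, at 0.769 times or less. SS13BN 1 is higher still 5.32 Mb out, and the relative spread is widest 8.82 Mb out.

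At finer scale, 5 windows of 50 kb with at least 10 fragments had the highest mean share. The window from 50000001 to 50050000 had 6 of its 15 fragments captured in SS 1 and 9 in SS 2, and 11 in SS13BN 1 and 11 in SS13BN 2, a mean of 61.7% ± 15.8 (SD, n = 4). The window at 47550001 had 3, 8, 10 and 10 of 13 in the same order, so SS 1 was low there. A pair of adjacent windows followed, with 8, 9, 10 and 6 of 14 at 48200001 and 7, 9, 6 and 9 of 13 at 48250001. Last was 49750001, with 5, 4, 6 and 8 of 12. In these windows every library was above its own share over the whole stretch, by the least in SS 1 at 47550001, at 1.06 times.

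The adjacent pair holds most of the single run of fragments whose deposited score was above 2 in all 4 libraries. The run spans 48235115 to 48303615, ending just past the pair, 7.30 Mb from the viewpoint, with 20 fragments over 68.5 kb. Of the 20 fragments, 9 were captured in SS 1 (45%) and 13 in SS 2 (65%), and 11 in SS13BN 1 (55%) and 13 in SS13BN 2 (65%). The local background was 23.6%, 24.3%, 23.6% and 34.7%. Shares above it follow from the rule that picked the run. The fragment with the highest mean score, 48247183 to 48247663, lies inside the run. Its scores were 2.83 in SS 1 and 4.23 in SS 2, and 4.76 in SS13BN 1 and 3.16 in SS13BN 2, a mean of 3.75 ± 0.903 (SD, n = 4), from 16, 20, 21 and 22 captured fragments of 37. The fragment itself was captured in SS 1 and SS13BN 1 and not in the other libraries, since the score belongs to its window. The next fragments by mean score, at least 37 fragments away, were 47083086 to 47085157 with 3.12 ± 1.44 (SD, n = 4) and 46888040 to 46893491 with 2.91 ± 1.26 (SD, n = 4). Neither was above 2 in all libraries: the former had 1.23 in SS 1 and the latter 1.07 in SS 2. The 20 fragments above 2 in all libraries are 1.09% of the stretch, against 3.16% of the 32982 window-scored fragments of chromosome 13, those of the stretch included.

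A long gap without captured fragments lay between the high blocks. From 48861267 to 49102325, with its near edge 6.47 Mb from the viewpoint, none of 52 successive fragments over 241 kb was captured in any of the 4 libraries. In a stretch fixed beforehand, 0 of 52 would allow a share of up to 5.77% per library, by counting error alone. This gap was picked as the longest without captures, so its 0 follows from the choice and that limit does not hold for it. The 37 fragments on its far side were captured at 13.5% in SS 1 and 24.3% in SS 2, and 13.5% in SS13BN 1 and 21.6% in SS13BN 2. The 37 fragments on its near side were captured at 35.1%, 40.5%, 27.0% and 56.8%, so capture resumed there at or above the level of the whole stretch. The fragments of the gap had a median length of 2753 bp, against 2243 bp over the stretch, and they include its longest fragment, of 55430 bp. How well reads can be placed there, and whether the assembly is complete, was not tested.

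Shorter gaps lay close by. From 48581429 to 48684705, 24 fragments over 103 kb were captured in none of the libraries, and from 48775208 to 48823315, 12 fragments. Another gap of 24 fragments ran from 47892360 to 47981708 over 89.3 kb. For 24 fragments fixed beforehand the limit per library would be 12.5%, but these gaps too were picked for having no captures. Gaps of at least 24 fragments numbered 3 among 1829 fragments here. At 3.5 to 10 Mb above the viewpoint there were 0 among 2032, where the longest had 21. Farther out on the lower side there was 1 among 4078 fragments from 10 to 20 Mb, itself of 1072 fragments. From 20 to 40 Mb there were 8 among 6770, the longest with 154, and from 40 to 70 Mb 12 among 3709, the longest with 219. Above the viewpoint the same bins held 1 among 2999, 1 among 5481 and 3 among 5870. The same places appear among 50 kb windows, since those at 47900001, 48600001, 48900001 and 49050001 had 0 captured of 12, 10, 19 and 13 fragments in every library. The window at 48800001 had 1 of 12 in SS 1 and 0 in the other libraries. Stretches captured in all 4 libraries were short by comparison: the longest had 3 fragments, at 47028045 to 47050587 and at 48488149 to 48493705, and 5 others had 2, the farthest from the viewpoint at 46039955 to 46045942.

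**Figure D3:**
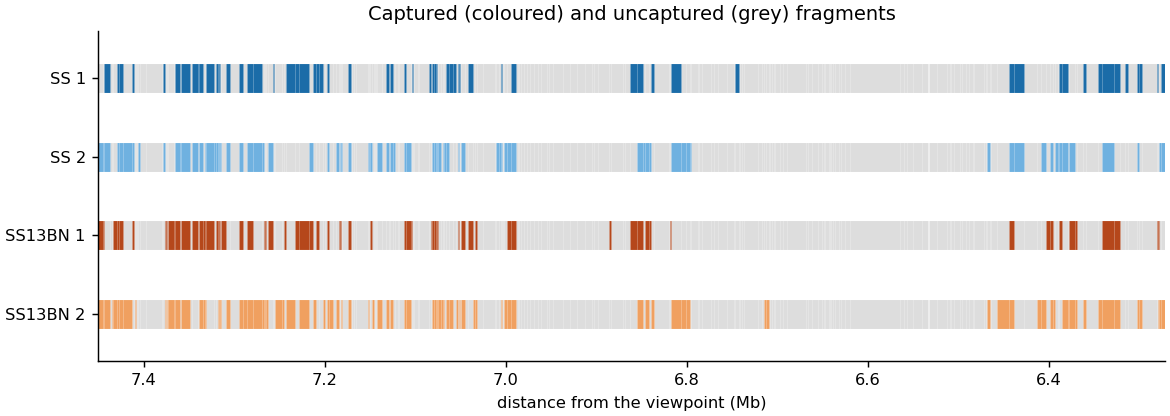
Each row is a library and each block a restriction fragment drawn to scale by its distance from the viewpoint in Mb, coloured where captured and grey where not. The dense block near 7.3 Mb is the run with scores above 2, and the grey span that begins 6.47 Mb out holds the 52 fragments captured in no library.

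The deposited scores give another picture of the part nearest the viewpoint than the captured shares do. Mean scores per 500 kb window were 1.2 ± 0.395 (SD, n = 4) from 48.0 to 48.5 Mb and 0.463 ± 0.537 from 49.5 to 50 Mb, though the latter had the higher captured share. From 51.5 to 52.0 Mb the mean score was -3.26 ± 0.454 (SD, n = 4), the lowest of all, at a captured share of 21.2% ± 7.83. The background moved with this. It reaches into the zone next to the viewpoint, and it rose from 20.5% at the far edge of the stretch to 45.9% at the near edge in SS 1. In SS 2 it rose from 21.2% to 46.7%, in SS13BN 1 from 21.1% to 45.6% and in SS13BN 2 from 31.8% to 53.8%. Spearman's rho between distance and background over the 13 windows ran from -0.95 to -0.97 in the 4 libraries, and that between distance and score from 0.52 to 0.59.

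Runs of low score followed the same pattern. In all 4 libraries 276 fragments scored below -2, which is 15.1% of the stretch against 5.53% of the window-scored fragments of the chromosome. They fell into 22 runs, and 275 of the 276 lay nearer the viewpoint than the midpoint. Of the 461 fragments from 50.5 Mb on, 220 were among them. The longest run, 48828846 to 49087906, had 55 fragments over 259 kb and covers most of the empty gap: 0, 1, 0 and 2 of its fragments were captured. The next, 51663188 to 51802610, had 46 fragments of which 7, 7, 7 and 12 were captured, or 15.2%, 15.2%, 15.2% and 26.1%, against backgrounds of 44.7%, 45.5%, 44.1% and 52.6%. Other runs of that kind were 51001746 to 51111020 (29 fragments, mean share 20.7%) and 50848507 to 50916654 (17 fragments, mean share 23.5%). A pair of runs of 21 fragments were lower in capture: 51262496 to 51310450 with 1, 1, 2 and 6 captured (mean share 11.9%), and 51454398 to 51489171 with 3, 0, 1 and 2 (mean share 7.14%).

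When each library's share over the whole stretch was taken as the background for every fragment, an alternative chosen after seeing the data, 50 fragments scored below -2 in all libraries and none of them lay from 50.5 Mb on. Of these, 49 form a run from 48833733 to 49079046, inside the longest low run of the deposited scores. Fragments above 2 in all libraries then numbered 60. They include the run at 48235115, now ending at 48305356, and a second place from 49949010 to 50053018, which the deposited scores do not put above 2 in all libraries. The mean score of the window from 49.5 to 50 Mb was 1.98 on this scale, and that of the window from 51.5 to 52.0 Mb was -0.673.

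**Figure D4:**
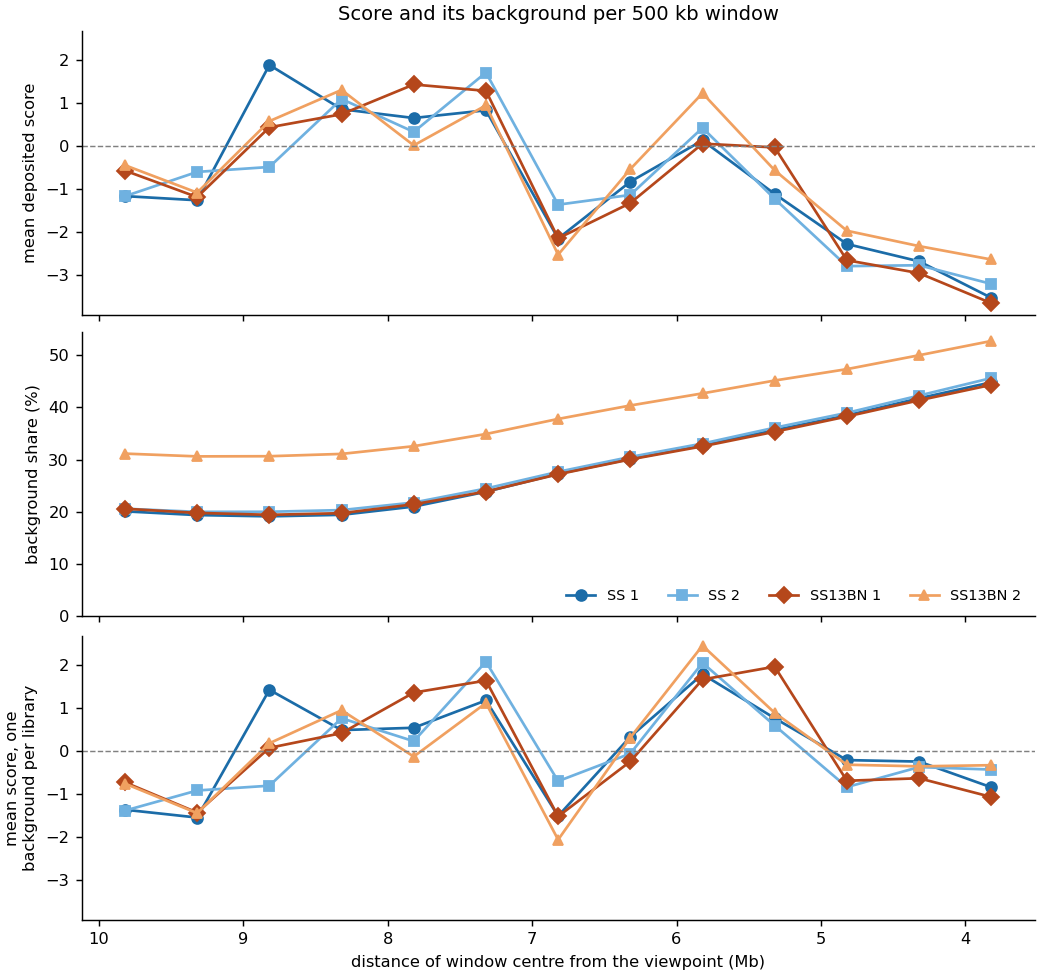
Panels give, per 500 kb window and library against distance from the viewpoint in Mb, the mean deposited score, the share captured in the background of 3000 fragments in percent, and the mean score when the library's share over the whole stretch is the background. Towards the viewpoint the background rises in each library and the deposited score falls, to between -3.65 and -2.64 in the nearest window, while the score with 1 background per library stays above -1.1 from 50.5 Mb on.

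At the level of single fragments the libraries shared part of their captures. Of the 1829 fragments, 876 (47.9%) were captured in no library, 408 in 1, 304 in 2, 160 in 3 and 81 (4.43%) in all 4. Over the window-scored fragments of the chromosome, 58.0% were captured in no library and 3.04% in all 4, and on the mirrored stretch 52.7% and 1.84%. SS 1 and SS 2 shared 159 fragments, which is 40.1% and 38.9% of their captures. SS13BN 1 and SS13BN 2 shared 239, or 60.1% and 38.8%. Across strains with the same replicate number, SS 1 and SS13BN 1 shared 182 (45.8% and 45.7%), and SS 2 and SS13BN 2 shared 286 (69.9% and 46.4%). SS 1 and SS13BN 2 shared 234 (58.9% and 38%), and SS 2 and SS13BN 1 shared 170 (41.6% and 42.7%). If libraries captured independently, each percentage would be near the partner's captured share of the stretch. That was 21.7% for SS 1, 22.4% for SS 2, 21.8% for SS13BN 1 and 33.7% for SS13BN 2. Percentages with unlike partners therefore do not rank the pairs by agreement. Over the 128 windows of 50 kb, Spearman's rho of the captured share was 0.439 between the SS libraries, 0.630 between the SS13BN libraries and 0.509 to 0.616 for the pairs across strains. Windows share fragment length and place, so these values are descriptions. Captured fragments also sat next to each other. After a captured fragment, the next was captured in 33.2% of cases in SS 1 and 39.1% in SS 2, and 36.4% in SS13BN 1 and 42.4% in SS13BN 2, against 18.5%, 17.5%, 17.7% and 29.3% after an uncaptured one.

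Capture was lower at both ends of the range of fragment lengths, though few fragments lay at the long end. Of the 76 fragments of up to 100 bp, 0 were captured in SS 1 and 3 in SS 2, and 0 in SS13BN 1 and 7 in SS13BN 2. For 0 of 76 the limit is a share of up to 3.95%. From 101 to 500 bp the mean share was 16.3% ± 2.03 (SD, n = 4), and from 4001 to 8000 bp it was 30.8% ± 7.00 (SD, n = 4), the highest of the classes. The 21 fragments over 16000 bp were captured less often again, with 3 captured in each library (14.3%). With 21 fragments that share is loosely set, and the class includes the 55430 bp fragment of the empty gap. The median length per 500 kb window ran from 1630 bp at 46.0 to 46.5 Mb, a window of low capture, to 3306 bp at 49.0 to 49.5 Mb, and the window of lowest capture had a median of 2460 bp.

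**Figure D5:**
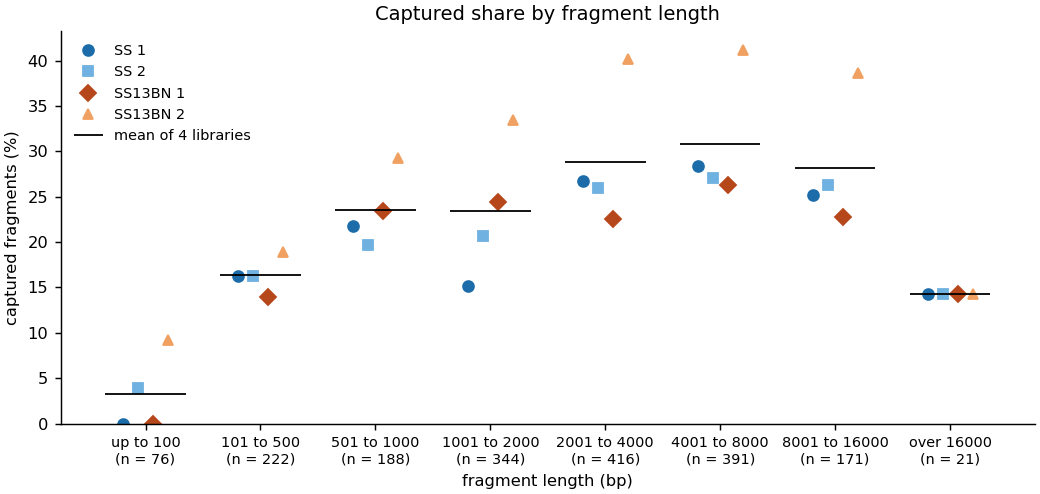
Points give the captured share in percent per library in classes of fragment length in bp, with the number of fragments under each class and the mean of 4 libraries as a line. The mean rises from 3.29% at up to 100 bp to 30.8% at 4001 to 8000 bp and is 14.3% over 16000 bp.

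No difference between the strains was detected in the amount of contact with the stretch. SS libraries averaged a captured share of 22.0% ± 0.464 (SD, n = 2), and SS13BN libraries 27.7% ± 8.43 (SD, n = 2), a difference of 5.69 percentage points with an exact two-sided permutation p of 0.667. Without SS13BN 2 it turned to -0.273 points. The stretch was also taken as a share of all captures of chromosome 13 beyond 3.5 Mb of the viewpoint. This scales by how much a library captured there, and whether it removes that effect was not tested. By this measure the stretch held 7.27% in SS 1 and 7.6% in SS 2, and 7.64% in SS13BN 1 and 7.65% in SS13BN 2. Both SS13BN libraries were above both SS libraries here, but by 0.207 points on average, and SS 2 lay 0.0325 points below SS13BN 1. The exact permutation p was 0.333, the smallest that 2 against 2 libraries allow. The ratio to the mirrored stretch averaged 1.35 ± 0.0384 (SD, n = 2) for SS, and for SS13BN 1.25 ± 0.0194 (SD, n = 2), a difference of -0.102 without overlap, at the same smallest exact permutation p of 0.333.

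No window of the stretch passed the test between strains. On chromosome 13, 224 windows of 500 kb were tested with limma. At an adjusted p of 0.05, 0 of them were called (0.0%), and at an unadjusted p of 0.05, 11 (4.91%). The stretch held 13 of the windows, with 0 called after adjustment and 1 before it. This was the window from 45.5 to 46.0 Mb, the far end. Taken whole, with the fragments beyond the edge of the stretch, 22 of its 161 fragments were captured in SS 1 and 22 in SS 2, and 30 in SS13BN 1 and 47 in SS13BN 2. Scaled to the mean total of chromosome 13 these were 24, 24, 33.8 and 36.8, and the log2 difference (SS13BN minus SS) was 0.54 (SE 0.20; limma adjusted p = 0.704). The window from 50 to 50.5 Mb was the other in which the strains did not overlap after scaling, at 33.8 and 33.8 in SS against 47.3 and 38.3 in SS13BN, with a log2 difference of 0.32 (SE 0.17; limma adjusted p = 0.886). SS13BN was thus above SS without overlap in 2 of 13 windows and below in 0, where 22.8% and 10.3% of the chromosome's windows were. The lowest difference was -0.30 (SE 0.35), from 48.5 to 49.0 Mb. The median 95% half-width over the 13 windows, before any adjustment, was 0.42 on the log2 scale.

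With windows of 50 kb, limma called 0 of 1985 at an adjusted p of 0.05 (0.0%) and 49 at an unadjusted p of 0.05 (2.47%). The stretch held 115 of them, with 0 called after adjustment and 2 before it. The smallest p belonged to the window at 51250001, with 1 of 21 fragments captured in SS 1 and 1 in SS 2, and 4 in SS13BN 1 and 5 in SS13BN 2, a log2 difference of 1.31 (SE 0.42). Next came 50950001 with 4, 5, 2 and 1 of 22, which is lower in SS13BN at -1.29 (SE 0.47), and 46900001 with 4, 1, 7 and 8 of 12, at 1.26 (SE 0.51). The limma adjusted p of all 3 was 0.954. The median 95% half-width, before any adjustment, was 1.14. All 3 differences were larger than that in size and none passed, so 1.14 understates the difference needed in a 50 kb window. Without SS 2, the window at 45850001 passed (limma adjusted p = 0.0272). It had 0 of 22 fragments captured in SS 1 and 3 in SS 2, and 5 in SS13BN 1 and 8 in SS13BN 2. By single fragments, 60 were captured in both SS13BN libraries and no SS library, which is 3.28%. This share was 2.88% on the mirrored stretch and 2.05% over the window-scored fragments of the chromosome. In the other direction there were 16, or 0.875%, against 1.39% on the mirrored stretch and 0.937% over the chromosome. SS13BN 2 captured 616 fragments against 397 to 409 in the others, and its part in these counts was not tested. Whether the strains differ in EcoRI sites or in how well reads are placed on rn5 was not tested either.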

How the data were processed

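Per the labels' protocols, 4C-seq with EcoRI was done on 6 libraries, 3 per strain. Per the submitters' processing notes, CASAVA 1.8 and the rn5 build were used. The aligner is not given in the sources used here, nor is the scoring program. Deposited tables hold 1 score per fragment. On chromosome 13 far from the viewpoint each deposited score equals (k - 37p) over the square root of 37p(1 - p), with k the captured fragments in a centred window of 37 and p the captured share of 3000 around it. Solving these equations rebuilt 100.0% of window scores, to within 1e-06, in 4 libraries. The states came from these same scores, so the rebuild is no separate check of them. A second reading on the lower side, from steps of the background count, gave 0 mismatches in each library. The solver was tested on simulated data. Rows nearer the viewpoint, past 52000606, merge fragments, and states implied there by the window scores did not match them. Shares were therefore not set against these rows. The rows did enter the limma fits, both as windows and in the chromosome 13 totals used for scaling. A score other than 0 counted as captured there, apart from window scores that ran on past the edge. With window-scored rows only, 1860 windows of 50 kb and 212 of 500 kb were tested, and 0 were called. Distances are from 55570181, where the viewpoint fragment, listed at 0, ends.

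Coordinates are as the tables give them, closed and counted from 0, so they may lie 1 base from a browser's. Windows of 50 and 500 kb were tested with limma 3.58.1 (R 4.3.3, intensity trend) on log2(captured fragments scaled to the mean chromosome 13 total + 1). Windows needed a mean of at least 1, the 10 kb on either side of the viewpoint was excluded, and p-values were adjusted by Benjamini-Hochberg over all windows of the chromosome at 0.05. Such a log2 difference understates changes of low values. Count-based models were not used. The values tested were numbers of captured fragments solved from the scores, not numbers of reads. Single values were compared by exact permutation. Named were all 500 kb windows, the 5 highest and 5 lowest 50 kb windows with at least 10 fragments, the 3 windows of smallest p, the longest runs past 2 or -2 in all 4 libraries, the longest stretches captured in all or none, and the 3 fragments of highest mean score at least 37 fragments apart. The members and these lists were chosen with earlier results of these data known. Python 3.11.15, numpy 2.4.6, pandas 2.3.3 and matplotlib 3.10.9 were used.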

Additional observations from a re-analysis of the deposited data

How the results depend on the processing

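The stretch stood above its mirrored stretch under every alternative tried, at mean log2 ratios of 0.24 to 0.58, and from 0.348 to 0.401 with single libraries left out. The strain difference in captured share was 5.36 and 6.01 points without SS 1 and SS 2, 11.6 without SS13BN 1 and -0.273 without SS13BN 2. The difference in the share of captures beyond 3.5 Mb ran from 0.0408 (without SS 1) to 0.373 (without SS 2). The log2 ratio of nearer to farther ran from -0.0549 (without SS13BN 2) to 0.0105 (without SS13BN 1). The count of fragments above 2 in all libraries, 20, depended most on the rule. It was 38 at a cut of 1.5, 0 at 3, 60 with 1 background per library, and 20 to 47 with a library left out, which loosens the rule to 3 libraries (45 without SS 1, 47 without SS 2, 35 without SS13BN 2). Below -2, the count of 276 was 84 at -3, 50 with 1 background per library, and 299 to 350 with a library left out. Windows of 50 kb past the limma threshold in the stretch numbered 0 to 1 with a library left out, in fits that assume the lone library of a strain varies like the others. Over the chromosome 37 windows passed without SS13BN 1, none of them in the stretch, and 4 without SS 2. Log odds, which leave out the scaling by library total, moved the median 50 kb difference over the chromosome to 0.30. Replicate numbers did not settle a pairing: the labels do not tie them, there are 2 pairs, and deviations of same-numbered libraries correlated at 0.112 over 1985 windows. Within the stretch, Spearman's rho over 50 kb windows was 0.592 and 0.616 for the same-numbered pairs across strains. It was 0.554 and 0.509 for the differently numbered pairs across strains, and 0.439 (SS) and 0.630 (SS13BN) within strains. A batch shared by number was not tested. With the replicate block, the share differences were again 5.69 and 0.207 points, and 0 windows of the stretch passed. The other 50 kb and 500 kb settings changed no call in the stretch. With 2 libraries per strain, groups were too small for a check of outlying samples. The number of fragments per window limits what can be detected.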
